A study of Mus musculus with 30 samples.

Results

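Histone deacetylases, sirtuins and histone lysine demethylases were examined in mouse cells before, during and after reprogramming with small molecules. They include the enzymes that valproic acid, an inhibitor of zinc-dependent deacetylases, and tranylcypromine, an inhibitor of the flavin-dependent demethylases, act on. The sirtuins and the other demethylases belong to different classes. Members were all genes on the array whose symbol was Hdac or Sirt followed by a number, or Kdm followed by a number, with no use of measured values. This gave 35 of the 19084 genes with a symbol, covered by 41 probes: 10 zinc-dependent deacetylases, 7 sirtuins and 18 demethylases. Hdac1 was not analysed here.

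Messenger RNA was measured in 30 samples with a 1-colour oligonucleotide array, in 5 sets of 7, 9, 4, 4 and 6 samples that the authors normalized separately. Chemically induced pluripotent stem cell (CiPSC) lines gave 11 samples. They came from mouse embryonic fibroblasts (CiPS34, CiPS50 and CiPS21 in set 1, CiPS45 in set 2, the control line in set 5), from wild-type embryonic fibroblasts (CiPS WT1 and CiPS WT2 in set 3), from neonatal fibroblasts (MNF CiPS7 in set 1, MNF CiPS1 in set 2), from adult lung fibroblasts (MAF CiPS3 in set 2) and from adipose-derived stem cells (ADSC CiPS2 in set 2, whose source label instead reads adult lung fibroblasts). The labels give each line's cocktail as letters: all 11 lines had forskolin (F), C6 and the late compound DZNep (Z), 10 had valproic acid (V, all but CiPS45), 9 had tranylcypromine (T, all but CiPS50 and CiPS45), and 8 had further compounds given as M, P, S, R, D or DB. Induced pluripotent lines made with factors numbered 4 samples: 2 OSKM iPSC lines (sets 1 and 2, no chemicals) and 2 SKM-FSK iPSC lines (set 4, forskolin). Embryonic stem cells (ESC), untreated, gave 5 samples, 1 in each set, of the line R1 except TT2 in set 2. Untreated somatic cells gave 7 samples: MEF1, MEF2 and MEF3 (embryonic fibroblasts, in sets 1, 4 and 5), WT MEF (set 3), and neonatal fibroblasts (MNF), adult lung fibroblasts (MAF) and adipose-derived stem cells (ADSC) in set 2. Embryonic fibroblasts under treatment were sampled once each at days 12 (VC6TF), 20 and 32 (VC6TF with Z), all in set 5. All pluripotent lines were kept on inactivated embryonic fibroblast feeder layers, and the labels state neither the sex of the cells nor whether compounds were present at harvest.

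Zinc-dependent deacetylases and the NAD-dependent sirtuins remove acetyl groups from lysines of histones and other proteins, and histone deacetylation generally goes with repressed chromatin. Lysine demethylases work by a flavin cofactor (the KDM1 proteins) or by an iron- and oxoglutarate-dependent JmjC domain (most of the others), and differ in the histone lysine they act on. Several act in corepressor or Polycomb complexes that are known to hold genes of lineage commitment in check in pluripotent cells.

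Values are intensities, each apparently the authors' mean of 2 or 3 replicates, and differences are log2 differences, fitted or within a set; since the sets were normalized separately, levels are comparable only within a set. Of the 35 members, 23 had values in all 5 sets, 6 in 4 sets, 1 in 3, 4 in 2 and 1 (Kdm3b) in set 5 only. Marker genes followed the labels: all 8 pluripotency markers tested rose and all 8 fibroblast markers tested fell in CiPSC against somatic cells, the fibroblast sum over 4 genes being 610 to 10705 in CiPSC lines, against 43337 to 122824 in somatic cells. The highest CiPSC fibroblast sums were those of CiPS WT1 (8064) and CiPS WT2 (10705), and no marker gene was listed at the lowest value of the file, 1e-04. Fibroblast and extraembryonic endoderm markers nevertheless reached 0.1, the lowest value in set 5. Of their values, 8 of 191 and 6 of 116 lay under 16. Proliferation markers also moved with the groups, with sums of 10581 to 26865 in CiPSC lines, against 4075 to 10879 in somatic cells, and 3 of 6 rose. Of 4 macrophage markers tested 3 fell (C1qa -5.94, C1qc -3.73 and Ptprc -1.29), with sums over 3 genes of 554 to 3087 in CiPSC lines and 448 to 15225 in somatic cells. The part of these cell types and of the feeder cells in the results was not tested, and in such bulk RNA fewer cells of a type and less RNA per cell cannot be told apart. In set 5, 18.6% of values lay under 16, against at most 0.771% in each of the other sets. MEF3, its fibroblast sample, stood apart: 32.6% of all genes were within 2-fold of the ESC sample of its set, against 52.7 to 63.2% in the other 6 somatic samples.

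In CiPSC lines, 8 of the 30 members that could be tested rose and 4 fell against somatic cells. The genes that rose were Sirt1, Hdac6, Kdm3a, Kdm2b, Kdm5b, Kdm4c, Kdm1a and Kdm6a, and those that fell were Hdac7, Kdm5d, Hdac8 and Sirt2. Calls required a limma adjusted p under 0.05, in a model with group and set as terms, and at least a 2-fold change. Of all genes, 14.8% rose and 13.3% fell by this rule, against 26.7% and 13.3% of the members, so the share that fell equals the background. The adjusted p alone passed 14 members, or 46.7%, against 38.9% of all genes, and added Hdac2 (0.94 ± 0.31, SE) and Sirt7 (-0.93 ± 0.36). The median member difference was 0.18, against -0.11 over all genes. In ESC against somatic cells 9 members rose, where 15.1% of all genes did, and 4 fell, where 14.2% of all genes did, and the adjusted p alone passed the same number, 13, against 35.7% of all genes. Both comparisons use the same somatic samples. Without the CiPSC lines of set 3, a choice made after seeing their marker levels, 10 members were called in CiPSC against somatic cells. Without set 5, 13 members were called in CiPSC, where Sirt1 could not be tested, and 13 in ESC against somatic cells. The share of all genes called without these samples is not given here, so these counts are not set against a background.

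**Figure D1:**
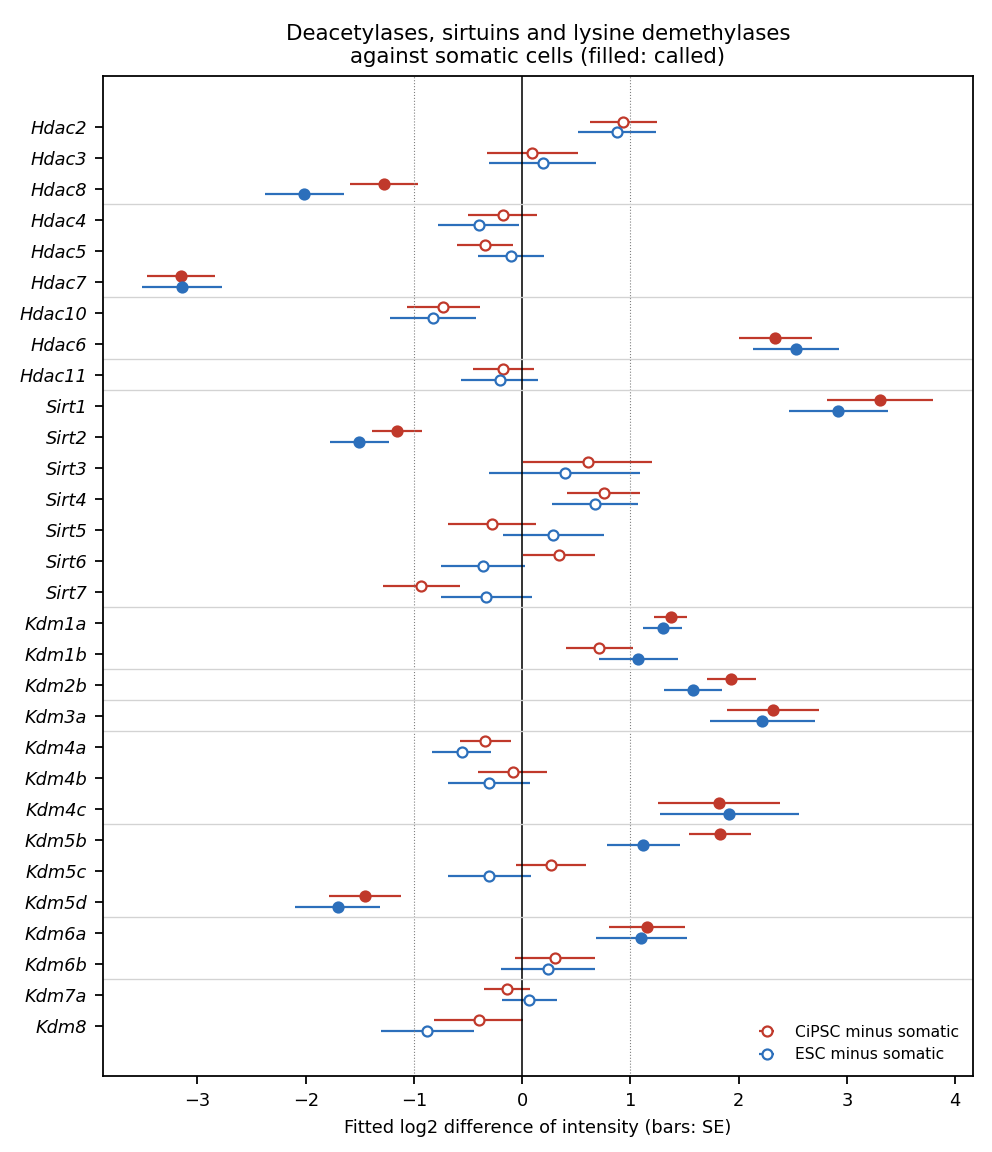
Fitted log2 differences of 30 members, grouped by enzyme class and separated by grey lines, for CiPSC minus somatic (red, upper of each pair) and ESC minus somatic (blue, lower). Bars are SE, filled points passed the adjusted p and the 2-fold rule, and dotted lines mark 2-fold. Hdac7 lies farthest left at -3.15 in CiPSC and Sirt1 farthest right at 3.31.

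The promoters of 2 called members that rose and 2 that fell are shown because, among called deacetylases and sirtuins with a single listed promoter, these genes had the largest differences in each direction, a choice made after their values were seen. The sequences run from 250 bases before to 50 bases after the start, 5′ to 3′ on the gene's strand, from RefSeq on GRCm38.p6: Hdac6 at chrX:7947840-7948139 (minus strand), Sirt1 at chr10:63338986-63339285 (minus), Hdac8 at chrX:102505109-102505408 (minus) and Sirt2 at chr7:28766502-28766801 (plus). Capitals mark the GC box GGGCGG and the CCAAT box CCAAT, each searched on both strands, with overlapping matches counted.
Hdac6: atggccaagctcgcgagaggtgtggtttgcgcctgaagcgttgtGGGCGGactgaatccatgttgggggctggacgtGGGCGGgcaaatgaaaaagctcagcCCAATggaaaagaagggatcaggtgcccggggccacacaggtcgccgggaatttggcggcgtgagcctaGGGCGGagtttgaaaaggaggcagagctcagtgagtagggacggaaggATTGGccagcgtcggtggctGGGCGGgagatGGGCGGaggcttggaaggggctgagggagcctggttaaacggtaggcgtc
Sirt1: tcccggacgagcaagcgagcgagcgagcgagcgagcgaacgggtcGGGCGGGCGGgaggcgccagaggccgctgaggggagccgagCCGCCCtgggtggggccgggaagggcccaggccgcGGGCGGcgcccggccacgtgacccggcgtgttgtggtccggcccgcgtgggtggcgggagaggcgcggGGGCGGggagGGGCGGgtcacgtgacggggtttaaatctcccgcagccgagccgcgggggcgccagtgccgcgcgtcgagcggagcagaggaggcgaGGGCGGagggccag
Hdac8: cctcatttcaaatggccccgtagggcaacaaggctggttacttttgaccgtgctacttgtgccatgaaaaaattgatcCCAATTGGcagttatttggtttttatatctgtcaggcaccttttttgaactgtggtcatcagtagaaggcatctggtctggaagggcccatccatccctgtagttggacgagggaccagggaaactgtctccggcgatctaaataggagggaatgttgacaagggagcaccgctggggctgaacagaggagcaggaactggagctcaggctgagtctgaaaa
Sirt2: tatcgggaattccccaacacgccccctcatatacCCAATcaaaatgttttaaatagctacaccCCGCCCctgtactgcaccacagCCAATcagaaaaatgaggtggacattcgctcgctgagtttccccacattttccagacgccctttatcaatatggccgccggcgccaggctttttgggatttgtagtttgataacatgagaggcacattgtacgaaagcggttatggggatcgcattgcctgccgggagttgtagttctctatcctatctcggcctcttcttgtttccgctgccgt
Hdac6 and Sirt1, which rose, had 5 and 7 GC boxes, and Hdac8 and Sirt2, which fell, had 0 and 1. CCAAT boxes numbered 2 in Hdac6, 0 in Sirt1, 2 in Hdac8 and 2 in Sirt2. CpG dinucleotides numbered 20 in Hdac6, 47 in Sirt1, 6 in Hdac8 and 16 in Sirt2. Of 32851 mouse promoters of this length, 35.7% held a GC box and 37.4% a CCAAT box, and of the 40 promoters listed for 28 members, 24 held a GC box and 16 a CCAAT box. For Hdac6 and Hdac8 the listed start lay inside the annotated gene, whose upstream end was at chrX:7948047 and chrX:102505381. Other starts were not examined. These matches describe the letters of 4 chosen windows and say nothing of binding.

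Among class I deacetylases, the mostly nuclear enzymes that valproic acid is known to inhibit, Hdac8 fell in CiPSC lines by 1.27 ± 0.31 (SE, limma adjusted p = 0.00245, n = 11 and 7). In set 1 Hdac8 read 180, 163, 296 and 306 in CiPS34, MNF CiPS7, CiPS50 and CiPS21 and 162 in ESC, against 433 in MEF1. In set 2 it read 313, 121, 153 and 92.0 in MNF CiPS1, MAF CiPS3, CiPS45 and ADSC CiPS2 and 89.2 in ESC, against 1192 in MNF, 412 in MAF and 221 in ADSC. In set 3 the values were 112 and 63.6 in the CiPSC lines and 44.2 in ESC, against 259 in WT MEF. All lines of sets 1 and 3 lay below their somatic sample, while MNF CiPS1 lay above ADSC in set 2. In set 5 the control line read 43.2 and ESC 20.6, against 44.2 in MEF3, so that no difference was seen there between the line and its fibroblasts. Without MNF the difference was -0.99 (adjusted p = 0.00637), under the 2-fold rule. In ESC the fall was larger, -2.01 ± 0.37 (adjusted p = 0.000172), in every set.

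Hdac2, a subunit of the Sin3, NuRD and CoREST corepressors, had a difference of 0.94 ± 0.31 in CiPSC (adjusted p = 0.025) and passed the p but not the 2-fold rule. It was measured in sets 2 to 5, where the within-set CiPSC differences were 0.82, 0.38 and 2.11 in sets 2, 3 and 5. Hdac3, the catalytic subunit of the NCoR and SMRT corepressors, was not called (0.09 ± 0.42), and its within-set differences ran in opposite directions: 1.39 in set 1, -1.10 in set 2, -0.06 in set 3 and 3.13 in set 5. The Hdac3 contrast in ESC was likewise split, 1.66 in set 1 and 3.39 in set 5 against -1.39 in set 2 and -1.19 in set 4. Within set 5 Hdac3 read 1472 in the control line, against 168 in MEF3, and within set 2 it read 378 to 1165 in the CiPSC lines, against 1432 to 1956 in MNF, MAF and ADSC.

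Class IIa deacetylases shuttle between nucleus and cytoplasm and bind MEF2 transcription factors. Hdac7 was the member that fell most in CiPSC, by 3.15 ± 0.32 (limma adjusted p = 5.2e-08), an 8.89-fold difference. In set 1 it read 454, 323, 517 and 571 in the CiPSC lines and 556 in ESC, against 5419 in MEF1. In set 2 the CiPSC lines read 1158, 1085, 411 and 542 and ESC 286, against 10094 in MNF, 3550 in MAF and 2498 in ADSC. In set 3 the lines read 447 and 410 and ESC 620.5, against 3379 in WT MEF. The control line of set 5 read 394 and ESC 1072, against 7470 in MEF3. All 11 lines lay below every somatic sample of their set, and were 1.95 to 4.25 below the mean of those samples on the log2 scale. In ESC the fall was 3.14 ± 0.37, and no pluripotent sample of any set overlapped its fibroblasts. Hdac4 (-0.18 ± 0.32) and Hdac5 (-0.34 ± 0.26) were not called and changed sign between sets. Hdac9 was measured only in sets 4 and 5, at 103 to 122 in SKM-FSK iPSC and 103 in ESC against 175 in MEF2, and at 10.8 to 28.7 in set 5.

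Class IIb holds Hdac6, a cytoplasmic deacetylase of tubulin and other proteins, and Hdac10, a polyamine deacetylase. Hdac6 rose by 2.34 ± 0.34 in CiPSC (adjusted p = 8.31e-06), a 5.06-fold difference, and by 2.53 ± 0.40 in ESC (adjusted p = 2.95e-05). Its values in set 1 were 5475, 6778, 9596 and 5447 in the CiPSC lines and 6455 in ESC, against 1189 in MEF1. In set 2 they were 9675, 3701, 4315 and 3012 in the lines and 3241 in ESC, against 2716 in MNF, 1132 in MAF and 712 in ADSC. Every CiPSC line lay above every somatic sample of its set, but MNF stood close to ADSC CiPS2. In set 3 the lines read 2015 and 2120, ESC 3066 and WT MEF 541. In set 5 the control line read 4078 and ESC 6263, against 210 in MEF3. Hdac10 was not called (-0.73 ± 0.34, adjusted p = 0.094): its within-set differences were -1.04, -1.0 and -1.06 in sets 1, 2 and 3 and 0.99 in set 5, and without set 5 it was called in ESC (-1.16 ± 0.39). Hdac11, the class IV enzyme, was not called either (-0.17 ± 0.28).

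**Figure D2:**
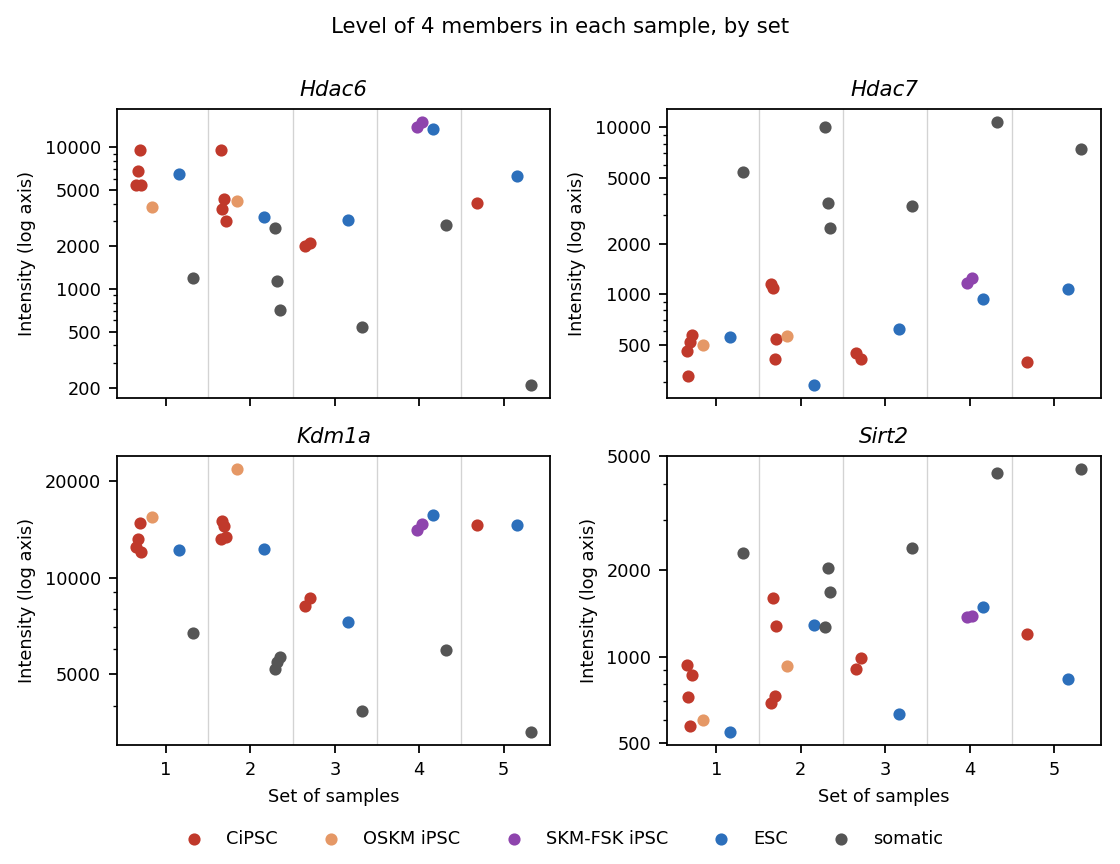
Intensity (log axis) of Hdac6, Hdac7, Kdm1a and Sirt2 in each sample of the 5 sets, without the samples under treatment. Within a set the groups run from CiPSC at the left to somatic cells at the right. In each set that holds CiPSC lines, Hdac7 is lower in all of them than in any somatic sample, as in set 5, with 394 in the line and 7470 in MEF3.

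Of the sirtuins, Sirt1 and Sirt2 were called, in opposite directions. Sirt1, a nuclear deacetylase of histones and of p53, was measured in sets 3, 4 and 5. It rose by 3.31 ± 0.49 in CiPSC (adjusted p = 0.000495, n = 3 and 3) and by 2.92 ± 0.46 in ESC (adjusted p = 0.000838). Sirt1 read 292 and 299 in CiPS WT1 and CiPS WT2 and 246 in ESC, against 50.8 in WT MEF. In set 4 it read 2300 and 2022 in SKM-FSK iPSC and 3021 in ESC, against 615 in MEF2. In set 5 it read 834 in the control line and 622 in ESC, against 34.1 in MEF3. The groups did not overlap in any of the 3 sets. The CiPSC lines differed by 2.52 and 2.56 from WT MEF in set 3, and by 4.61 from MEF3, which stood apart. Leaving out set 5 gave an ESC difference of 2.29 ± 0.29 and allowed no CiPSC fit. Sirt2, a mainly cytoplasmic deacetylase of tubulin and of histone H4, fell by 1.15 ± 0.23 in CiPSC (adjusted p = 0.000372) and by 1.50 ± 0.27 in ESC (adjusted p = 0.000153). It read 937, 722, 574 and 863 in the CiPSC lines and 545 in ESC of set 1, against 2289 in MEF1. In set 2 the lines read 689, 1602, 727 and 1282 and ESC 1287, against 1268 in MNF, 2030.0 in MAF and 1676 in ADSC. There MAF CiPS3, ADSC CiPS2 and ESC lay above MNF, so the groups overlapped in that set. In set 3 the lines read 908 and 991 and ESC 629, against 2383 in WT MEF. In set 5 the control line read 1203 and ESC 836, against 4507 in MEF3.

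Sirt3, the main mitochondrial deacetylase, was not called over all sets (0.61 ± 0.59), and set 5 opposed the others. It read 2713 to 5186 in CiPSC lines and 4688 in ESC against 1365 in MEF1 of set 1, and 3091 to 8788 in CiPSC lines and 3848 in ESC against 1286 to 2102 in the somatic samples of set 2. In set 3 it read 1236 and 1365 in the lines and 1468 in ESC, against 612 in WT MEF. In set 5 it read 13.6 in the control line and 13.7 in ESC, against 513 in MEF3, so both pluripotent samples of that set were near the bottom of the scale. Without set 5, Sirt3 was called at 1.50 ± 0.25 in CiPSC and 1.50 ± 0.31 in ESC. Sirt7, a nucleolar enzyme, was also split by set 5, with differences of -0.65, -1.73 and -1.33 in sets 1, 2 and 3 and 1.87 in set 5. Without set 5 Sirt7 was called in CiPSC, at -1.35 ± 0.29. Sirt4 (0.75 ± 0.34), Sirt5 (-0.28 ± 0.41) and Sirt6 (0.34 ± 0.33) were not called. The 3 probes of Sirt6 disagreed in set 5, where the CiPSC difference was -1.36, 3.24 and -0.44.

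Kdm1a (also LSD1), the flavin enzyme that tranylcypromine inhibits and a subunit of the CoREST complex, rose in every set. The difference was 1.37 ± 0.15 in CiPSC (adjusted p = 2.34e-07), or 2.59-fold, and 1.30 ± 0.18 in ESC (adjusted p = 5.88e-06). Its SE was the smallest of any called member in either comparison. In set 1 Kdm1a read 12415, 13194, 14803 and 12028 in the CiPSC lines and 12169 in ESC, against 6747 in MEF1. In set 2 it read 13193, 15029, 14492 and 13363 in the lines and 12240.0 in ESC, against 5186 in MNF, 5445 in MAF and 5678 in ADSC. In set 3 it read 8130.0 and 8669 in the lines and 7300.2 in ESC, against 3852 in WT MEF. In set 5 it read 14571 in the control line and 14597 in ESC, against 3309 in MEF3. No pluripotent sample overlapped a somatic sample of its set. Its paralogue Kdm1b (LSD2), named here after its values were seen, was called in ESC alone (1.07 ± 0.36, adjusted p = 0.0245, against 0.71 ± 0.31 in CiPSC, adjusted p = 0.072). The ESC difference of Kdm1b was 3.65 in set 5 and -0.01 to 1.26 in the other sets, and it was 0.60 without MEF3 (adjusted p = 0.0554), 0.75 without ESC5 (0.124) and 1.03 to 1.05 without MEF2, ESC4 or ESC1 (0.0507 to 0.0594). In 7 of 23 alternatives, these among them, the ESC call of Kdm1b was lost. A difference between the CiPSC and ESC levels of Kdm1b was not called.

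Kdm2b, which carries a CXXC domain and brings a variant Polycomb complex to CpG islands, rose by 1.93 ± 0.23 in CiPSC (adjusted p = 4.77e-07) and 1.58 ± 0.26 in ESC. In set 1 Kdm2b read 3051, 5022, 5359 and 4741 in the lines and 4681 in ESC, against 1306 in MEF1. In set 2 it read 8474, 4726, 5808 and 4229 in the lines and 3496 in ESC, against 3185 in MNF, 1450 in MAF and 1213 in ADSC. In sets 3 and 5 it read 3904, 3221 and 5108 in the lines and 2350 and 3304 in ESC, against 787 in WT MEF and 774 in MEF3. All 11 lines lay above every somatic sample of their set, and a second Kdm2b probe gave 2.12, 3.03 and 2.76 in sets 2, 3 and 5. Kdm2a, its paralogue, was measured in sets 4 and 5 only and could not be tested. It read 14.2 and 15.0 in SKM-FSK iPSC and 12.8 in ESC, against 1442 in MEF2. The fall was smaller in set 5, with 496 in the control line and 244 in ESC, against 666 in MEF3.

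Kdm3a, which demethylates H3K9, rose by 2.32 ± 0.42 in CiPSC (adjusted p = 0.000345) and 2.22 ± 0.49 in ESC (adjusted p = 0.00187). It was measured in sets 2 to 5 and read 1822, 5121, 5234 and 2856 in the CiPSC lines of set 2 and 5373 in ESC, against 312 in MNF, 1764 in MAF and 779 in ADSC. In set 3 it read 3048 and 4301 in the lines and 2288 in ESC, against 539 in WT MEF. In set 5 it read 6739 in the control line and 3287 in ESC, against 2226 in MEF3. Every line exceeded its somatic samples, although MNF CiPS1 and MAF differed little. Kdm3b was measured in set 5 only, at 2.8 to 26.5, and was not tested.

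Among the KDM4 demethylases of H3K9 and H3K36, Kdm4c was called, at 1.82 ± 0.56 in CiPSC (adjusted p = 0.0164) and 1.91 ± 0.64 in ESC (adjusted p = 0.0283). In set 2 it read 376, 1966, 1962 and 853 in the CiPSC lines and 1413 in ESC, against 68.5 in MNF, 366 in MAF and 369 in ADSC. In set 3 it read 1859 and 1373 in the lines and 658 in ESC, against 276 in WT MEF. In set 5 the control line read 108 and ESC 535, against 199 in MEF3, so the line lay below its fibroblasts there. The CiPSC call was lost with embryonic fibroblasts as the only somatic samples (1.15, adjusted p = 0.214) and without the lines of set 3 (1.45, adjusted p = 0.0909). The ESC call was lost in 7 of 23 alternatives. Among them were leaving out ESC2 (adjusted p = 0.1), WT MEF (0.0536), MEF2 (0.0506), ESC4 (0.0506) or ESC5 (0.101). Kdm4a (-0.34 ± 0.23) and Kdm4b (-0.09 ± 0.32) were not called, and Kdm4d, at 4.8 to 40.4 in sets 4 and 5, was not tested.

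The KDM5 enzymes remove methyl groups from H3K4. Kdm5b rose by 1.83 ± 0.29 in CiPSC (adjusted p = 2.31e-05) and 1.12 ± 0.34 in ESC (adjusted p = 0.012). In set 1 it read 1461, 1622, 2743 and 1296 in the lines and 589 in ESC, against 731 in MEF1. In set 2 it read 2909, 1887, 1980 and 1633 in the lines and 2279 in ESC, against 1088 in MNF, 506 in MAF and 431 in ADSC. In sets 3 and 5 it read 1241, 891 and 3051 in the lines and 694 and 1041 in ESC, against 507 in WT MEF and 244 in MEF3. All 11 lines exceeded the somatic samples of their set, whereas ESC1 lay below MEF1. In ESC the call was lost in 5 of 23 alternatives. Among them were leaving out ESC2 (0.87, adjusted p = 0.0678), MEF3 (0.85, adjusted p = 0.035) or set 5 (0.95, adjusted p = 0.0225). The last 2 failed the 2-fold rule alone.

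Kdm5d, which lies on the Y chromosome, fell by 1.46 ± 0.33 in CiPSC (adjusted p = 0.00126) and 1.70 ± 0.39 in ESC (adjusted p = 0.00151). It read 32.8 to 68.9 in the CiPSC lines and 89.2 in ESC of set 1, against 314 in MEF1, and 56.3 to 143 in the lines and 77.5 in ESC of set 2, against 176 to 315 in the somatic samples. In set 3 it read 143 in CiPS WT1, 259 in CiPS WT2 and 42.4 in ESC, against 208 in WT MEF. In set 5 it read 367 in the control line and 228 in ESC, against 537 in MEF3. CiPS WT2 thus lay above its fibroblasts and the other 10 lines below theirs. Kdm5c, its X-linked relative, was not called (0.27 ± 0.32), and Kdm5a read 3.7 to 15.2 in set 5 and 121 to 214 in set 4 and was not tested.

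Kdm6a (UTX), the X-linked H3K27 demethylase, rose by 1.15 ± 0.36 in CiPSC (adjusted p = 0.0126) and 1.10 ± 0.42 in ESC (adjusted p = 0.043). In set 1 it read 1676, 3615, 6092 and 1063 in the lines and 1967 in ESC, against 686 in MEF1. In set 2 it read 662, 1186, 1923 and 1432 in the lines and 1352 in ESC, against 776 in MNF, 1129 in MAF and 427 in ADSC. In sets 3 and 5 it read 646, 636 and 2381 in the lines and 989 and 1540 in ESC, against 152 in WT MEF and 1486 in MEF3. MNF CiPS1 overlapped the somatic samples. The CiPSC call was lost without MEF1 (0.97, adjusted p = 0.0526) or WT MEF (0.93, adjusted p = 0.0528). The ESC call was lost in 10 of 23 alternatives. Among them were leaving out MEF1 (adjusted p = 0.0889), ESC1 (0.0547), ADSC (0.0653), ESC2 (0.0873), WT MEF (0.113), ESC3 (0.147), MEF2 (0.071) or ESC4 (0.071). Kdm6b (JMJD3) was not called (0.30 ± 0.37) and had differences of 2.23 in set 1 and -0.93 in set 2. Kdm7a (-0.14 ± 0.21) and Kdm8 (-0.40 ± 0.41) were not called.

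**Figure D3:**
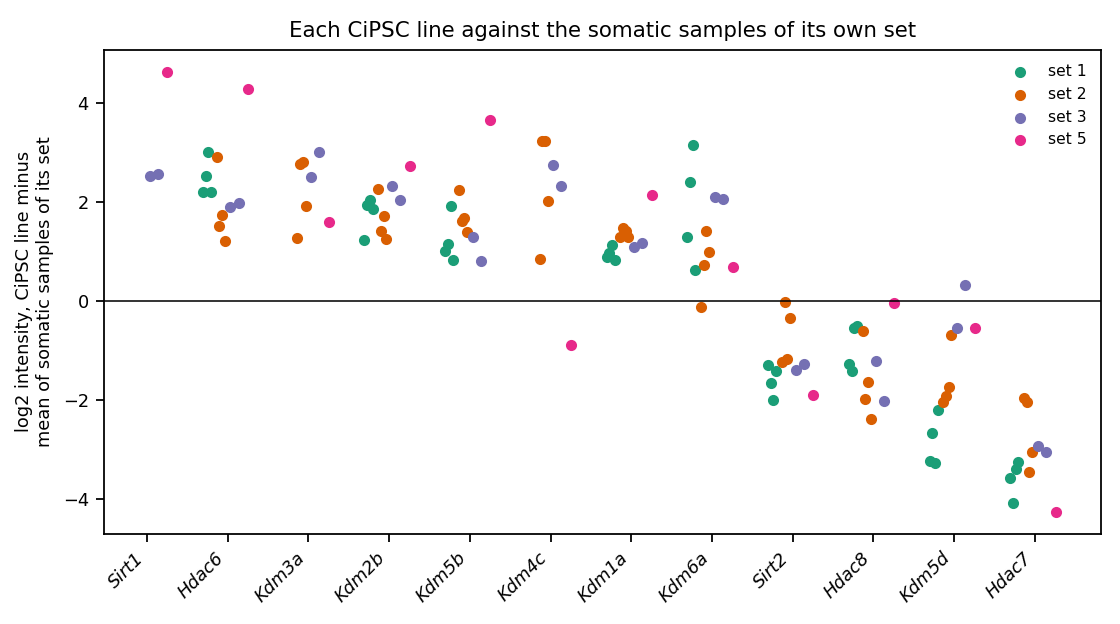
Each point is 1 CiPSC line, drawn as its log2 intensity minus the mean of the somatic samples of its own set, for the 12 members called in CiPSC against somatic cells and coloured by set. Hdac6, Kdm2b, Kdm5b and Kdm1a lie above 0 in all 11 lines and Hdac7 below 0 in all 11. The control line of set 5 lies at -0.88 for Kdm4c and -0.04 for Hdac8.

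The labels of the lines made with factors list neither valproic acid nor tranylcypromine. In OSKM iPSC 4 of 24 members tested rose against somatic cells (Kdm2b, Kdm5b, Hdac6 and Kdm1a), where 12% of all genes rose, and 3 fell (Hdac7, Kdm5d and Sirt2), where 10.0% of all genes fell. The SKM-FSK iPSC are from set 4 only, where MEF2 is the only somatic sample. In them 4 of 29 members rose (Hdac6, Kdm3a, Sirt1 and Kdm1a), where 7.30% of all genes rose, and 2 fell (Hdac7 and Sirt2), where 7.92% of all genes fell. Hdac6 differed by 1.85 ± 0.55 in OSKM iPSC (adjusted p = 0.016) and 2.49 ± 0.70 in SKM-FSK iPSC (adjusted p = 0.0175). All groups and sets were fitted together, so the SKM-FSK differences also draw on ESC and somatic samples of other sets. Within set 4, Hdac6 lay 2.29 and 2.41 above MEF2 in the 2 SKM-FSK lines. Hdac7 differed by -3.15 ± 0.51 in OSKM iPSC (adjusted p = 8.7e-05) and -2.96 ± 0.65 in SKM-FSK iPSC (adjusted p = 0.00318). Kdm1a differed by 1.79 ± 0.26 in OSKM iPSC (adjusted p = 1.96e-05) and 1.22 ± 0.31 in SKM-FSK iPSC (adjusted p = 0.00997). These groups hold 2 lines each: leaving out OSKM iPS1 left 4 members called and leaving out OSKM iPS2 left 3, and leaving out either SKM-FSK line left 1. All these comparisons share somatic samples with those of CiPSC and ESC.

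Against ESC, no member was called in CiPSC lines, where 0.0303% of all genes were, and 2 of 30 had an unadjusted limma p under 0.05, as had 819 of 16497 genes. Those 2 were Kdm5b, at 0.71 ± 0.32 (95% interval 0.04 to 1.38), and Hdac8, at 0.74 ± 0.35 (0.0036 to 1.47). For Kdm1a the interval was -0.28 to 0.43, for Hdac6 -0.98 to 0.60, for Hdac7 -0.75 to 0.73 and for Sirt1 -0.72 to 1.49. A 2-fold difference lay outside the intervals of Kdm1a, Hdac6 and Hdac7 and inside those of Sirt1 and Kdm4c (-1.47 to 1.29). No member was called in OSKM iPSC against ESC (0.0175% of all genes, 1 of 24 members at an unadjusted p under 0.05) or in SKM-FSK iPSC against ESC (0.00615% of all genes, 0 of 29 members at an unadjusted p under 0.05). Their intervals were wide: for Hdac7 the interval was -1.14 to 1.11 in OSKM iPSC and -1.17 to 1.53 in SKM-FSK iPSC against ESC, so 2-fold differences in either direction lay within them. Counted line by line, 60.7 to 100% of members (median 83.3%) were within 2-fold of the ESC sample of the set in CiPSC lines, against 28.6 to 54.5% (median 52.0%) in somatic samples, the lowest being MEF3. Over all genes the medians were 84.8% in CiPSC lines and 61.6% in somatic samples. The lowest CiPSC share was that of MNF CiPS1, with 17 of 28 members, and CiPS45 and ADSC CiPS2 had 28 of 28.

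The 2 CiPSC lines made without tranylcypromine (CiPS50 and CiPS45) were compared with the 9 made with it, in a fit with set as a term. Sets 3 and 5 held only lines made with tranylcypromine, so each difference rests on the lines of sets 1 and 2. No member was called, nor any of 14792 genes (0% called), while 3 of 29 members and 714 genes had an unadjusted limma p under 0.05. Kdm1a differed by 0.15 ± 0.20 (95% interval -0.30 to 0.61). Sirt4 differed by -1.50 ± 0.32 (adjusted p = 0.95): it read 282 in CiPS50, against 1480.0, 676 and 872 in CiPS34, MNF CiPS7 and CiPS21, and 578 in CiPS45, against 1171, 1520.0 and 1444 in MNF CiPS1, MAF CiPS3 and ADSC CiPS2. Both lines without the compound were the lowest of their set. Kdm6a differed by 1.30 ± 0.46 and Hdac11 by -0.68 ± 0.30. CiPS50 and CiPS45 also lacked the added compounds M, P, S, R, D and DB of the lines beside them, and CiPS45 lacked valproic acid, so these cannot be told apart.

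In set 2 a line could be set against the cells it came from. Hdac7 was lower by 3.12 (MNF CiPS1 against MNF), 1.71 (MAF CiPS3 against MAF) and 2.20 (ADSC CiPS2 against ADSC), as log2 differences of 1158 against 10094, 1085 against 3550 and 542 against 2498. Hdac6 was higher by 1.83, 1.71 and 2.08 and Kdm1a by 1.35, 1.46 and 1.23 in the same order. Kdm5b was higher by 1.42, 1.90 and 1.92, and Hdac8 differed by -1.93, -1.77 and -1.27. Kdm6a differed by -0.23, 0.07 and 1.74, where the ADSC sample read 427, and Sirt2 differed by -0.88, -0.34 and -0.39. Each value is 1 sample against 1 and carries no test.

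The samples under treatment were set against MEF3, the only fibroblast sample of set 5 and the one that stood apart above. Pluripotency markers had a summed level of 1078 in MEF3, 620, 642 and 1681 at days 12, 20 and 32 and 41734 in the control line. With 1 sample a day there is no test, and a difference is counted at 2-fold from MEF3. At day 12, 12 of 35 members were higher (34.3%, against 24.9% of all genes) and 9 lower (25.7%, against 31.6%). At day 20, 10 were higher (28.6%, against 25.8%) and 9 lower (25.7%, against 33.0%). At day 32, 11 were higher and 11 lower (31.4% each, against 28.1% and 35.8%). The members' shares lay within 10 percentage points of those of all genes at each day.

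Several of the members called in pluripotent cells differed from MEF3 by less than 2-fold through day 32. Kdm1a read 3309 in MEF3, 3391 at day 12, 3812 at day 20, 3889 at day 32 and 14571 in the control CiPSC line. Sirt1 read 34.1 in MEF3, 39.8, 49.3 and 61.7 at days 12, 20 and 32 and 834 in the line. Sirt2 read 4507 in MEF3, 5430, 5242 and 4886 at the 3 days and 1203 in the line. Their difference from MEF3 was under 1 on the log2 scale at each day, as it was for Kdm2b, Kdm3a except at day 20 (-1.03), Kdm5b and Kdm6a. Close to that limit at day 12 were Kdm5b, with 482 against 244 in MEF3, and Kdm3a, at -0.93.

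Hdac7 and Hdac6 were different already at day 12. Hdac7 read 7470 in MEF3, 1370, 1593 and 1102 at days 12, 20 and 32, 394 in the line and 1072 in ESC. Hdac6 read 210 in MEF3, 1177, 1494 and 1081 at the 3 days, 4078 in the line and 6263 in ESC. Both thus stood between fibroblasts and the line at each day, but Hdac7 at day 32 was close to ESC. Hdac3 read 168 in MEF3, 672, 713 and 836 at the 3 days and 1472 in the line.

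Another pattern was a level under treatment above that of MEF3 and of both pluripotent samples of the set. Kdm2a read 666 in MEF3, 11093, 9188 and 5806 at days 12, 20 and 32, 496 in the CiPSC line and 244 in ESC. Hdac8 read 44.2 in MEF3, 468, 566 and 378 at the 3 days, 43.2 in the line and 20.6 in ESC. Kdm4c read 199 in MEF3, 1931, 1640 and 733 at the 3 days, 108 in the line and 535 in ESC. Hdac10 read 164 in MEF3, 498, 570 and 488 at the 3 days, 326 in the line and 307 in ESC. Sirt7 read 336 in MEF3, 1618, 1837 and 1285 at the 3 days, 1225 in the line and 931 in ESC. For these genes the treated fibroblasts were at least 2-fold above MEF3 at each day, and the line and ESC lay below day 32, although for Sirt7 the line differed little from it. The baseline is the single sample MEF3. For Hdac10, Kdm4c and Sirt7 the CiPSC difference from it was opposite in sign to the mean CiPSC differences of the other sets that measured them. Sirt4 and Kdm1b had their highest treated values at day 32, with 1260 and 371 against 250 and 67.1 in MEF3. Fibroblast marker sums were 71599 in MEF3, 130443, 121069 and 94500 at days 12, 20 and 32 and 1400 in the control line. Proliferation sums were 5113 in MEF3, 1427, 4212 and 4516 at the 3 days and 22909 in the line. Sums of 3 extraembryonic endoderm markers were 4151 in MEF3, 3183, 8308 and 19409 at the 3 days and 1737 in the line. Macrophage sums were 4981 in MEF3, 669, 633 and 2146 at the 3 days and 2100 in the line. The part of these cell types in the levels was not tested.

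**Figure D4:**
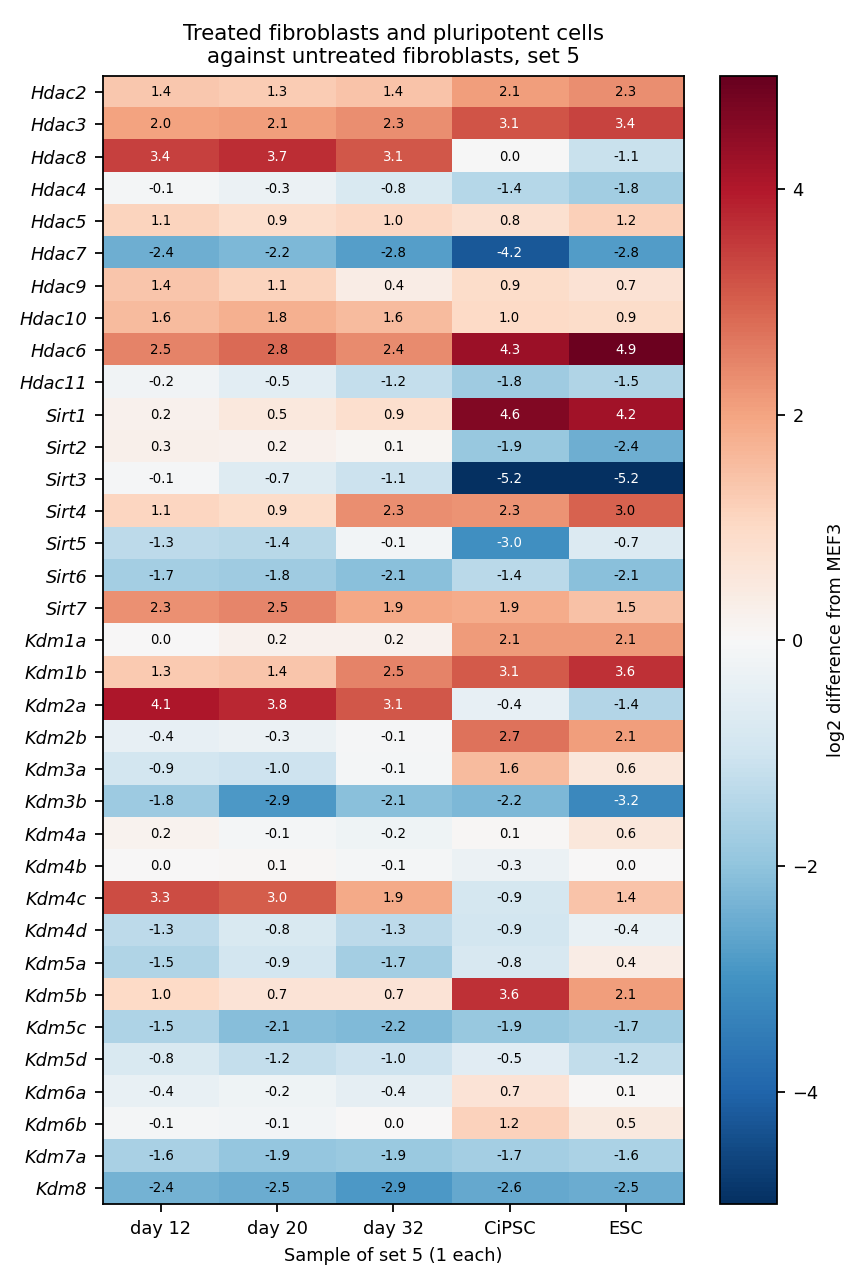
Log2 difference from MEF3 of all 35 members in the 3 treated samples, the control CiPSC line and ESC of set 5 (1 sample each), by enzyme class. Red is higher and blue lower than MEF3, and the number is the difference. Kdm2a (4.06 at day 12), Hdac8 (3.40) and Kdm4c (3.28) are high under treatment and -0.42, -0.04 and -0.88 in the CiPSC line.

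The partners and counterparts of these enzymes were described by lists drawn from general knowledge. Of the HDAC corepressor subunits, 6 of 26 tested rose and 2 fell in CiPSC against somatic cells (median 0.32, against -0.11 over all genes, of which 14.8% rose and 13.3% fell). Sap30, a Sin3 subunit, rose by 3.12 ± 0.27, Mta3, a NuRD subunit, by 2.21 ± 0.20 and Rcor2, a CoREST subunit that binds Kdm1a, by 1.80 ± 0.32, while Mbd2, a methyl-CpG binding NuRD subunit, fell by 2.10 ± 0.30. Of the histone acetyltransferases, 5 of 12 rose and 0 fell (median 1.36): Kat6b by 2.60 ± 0.24, Hat1 by 2.59 ± 0.23, Kat2a by 1.91 ± 0.45 and Kat7 by 1.85 ± 0.36 had the largest differences. Acetyl-lysine readers had 3 of 7 higher and 0 lower, among them Brd8 (1.49 ± 0.33). Of other JmjC proteins 2 of 12 rose, a share near that of all genes, led by Jarid2 (3.35 ± 0.29), a Polycomb cofactor without demethylase activity, and Phf2 fell by 1.29 ± 0.28. Of H3K4 methyltransferase subunits 2 of 11 rose, again near that share: Wdr5 (2.55 ± 0.25) and Dpy30 (2.33 ± 0.21). Of enzymes that make or use NAD, which sirtuins need, 4 of 8 rose and 1 fell: Parp1, a large NAD consumer, rose by 2.79 ± 0.27 and Nampt, which makes a NAD precursor, by 2.01 ± 0.39, while Nmnat3 fell by 1.47 ± 0.30. All these genes passed the same limma rule over 16497 genes.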

How the data were processed

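Total RNA was labelled with Cy5 and hybridised to the Mouse Whole Genome OneArray, per the labels. The authors deposited 1 table of linear intensity values for 26423 probes and 30 samples, normalized within 5 sets, and the design text gives 2 or 3 replicates per sample, so each column appears to be a mean. Whether these were separate cultures is not stated, so p-values measure only the spread between samples. The sources used here do not give the scanner, the software or the background correction.

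Probes were named through the platform annotation (21876 named, 4547 not). Values were taken to log2 with a floor of 1e-04. The probe measured in most samples, then the brightest, stood for a gene. Differences were fitted in limma 3.58.1 (R 4.3.3, with the data.table package, version 1.17.8) over all genes, with group and set as terms on 30 samples, at least 2 sets holding both groups (1 for SKM-FSK iPSC) and 3 residual degrees of freedom, and adjusted by Benjamini and Hochberg. The fitting was tested on simulated data. Tables and figures used Python 3.11.15, pandas 2.3.3, numpy 2.4.6 and matplotlib 3.10.9.

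Members, gene lists and tests were chosen with earlier results of these data known. Values per sample are given for members called in CiPSC or ESC against somatic cells with 1 sign in every set in either comparison, and up to 4 called genes per list; other members were described after their values were seen. Alternatives were median centring, leaving out the dimmest 25% of genes, the mean of probes, an offset of 13.9, the adjusted p alone, a trended prior, only the compared groups, a replicate block, embryonic fibroblasts or R1 alone, leaving out samples or set 5, and, added after seeing the data, leaving out the CiPSC lines of set 3 and a floor of 16 for the time course. Samples with the same title number were not tied to a shared culture by the labels. The number of arrays limits all precision.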

Additional observations from a re-analysis of the deposited data

Results flagged for a closer look

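Among the 4 CiPSC lines of set 1 and of set 2, 53 groups of 4 values were examined for a value far from the other 3 on the log2 scale, and 2 were found, where chance gives about 5%. Kdm7a, a demethylase of H3K9 and H3K27, read 86.4 in ADSC CiPS2, against 120, 120 and 126 in the other lines of set 2. Sirt6, a nuclear sirtuin, read 595 in MNF CiPS1, against 277, 278 and 315 in the other lines of set 2. This rests on 1 of the 3 Sirt6 probes. A second probe read 149 in MNF CiPS1, against 88.5, 137 and 116 in MAF CiPS3, CiPS45 and ADSC CiPS2. The third read 120 in MNF CiPS1, below the 136, 162 and 158 of those lines. Neither gene was called in any comparison.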

How the results depend on the processing

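Of 166 alternative counts of members called or past 2-fold, 160 stayed within 1.5 times the count reported. The share of all genes is not given for these alternatives, so the counts are not set against a background. The count was 10 to 14 for CiPSC against somatic cells (12 reported), 9 to 13 for ESC against somatic cells (13 reported) and 0 under all alternatives for the comparisons of CiPSC or iPSC with ESC and without against with tranylcypromine. With samples left out, OSKM iPSC against somatic cells gave 3 to 10 (7 reported) and SKM-FSK iPSC against somatic cells 1 to 7 (6 reported). With day 12 in place of MEF3, 1 member differed by 2-fold at day 20 (19 reported) and 7 at day 32 (22 reported), since treated samples were then compared with each other. With the replicate block of the title numbers, 12 members were called in CiPSC and 12 in ESC against somatic cells and 0 in CiPSC against ESC. Title numbers name lines or samples and were not shown to pair them. Single members were followed in CiPSC and ESC against somatic cells only: of 667 alternative differences, 633 kept their direction and side of the threshold, 34 kept the direction but lost the call (Kdm1b, Kdm4c, Kdm5b, Kdm6a and Hdac8, for which the cause was not tested) and 0 reversed. No fit was possible for SKM-FSK iPSC against somatic cells without MEF2 or against ESC without ESC4, the only such samples of set 4. Sirt1 could not be fitted in CiPSC against somatic cells without set 5. Low intensity limits set 5, where Kdm3b, Kdm4d and Kdm5a stayed near the bottom of the scale.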
